A study of Mus musculus with 5 samples.

Results

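Autophagy is the route by which a cell wraps its own contents in a double membrane and delivers them to the lysosome, and mitophagy is its form for worn mitochondria. The kinase ULK1 with its partner ATG13 starts the process, BECN1 helps to nucleate the membrane, and proteins of the ATG8 family (LC3 and GABARAP) coat it. Cargo is brought in by receptors such as SQSTM1 (p62) and, on mitochondria, BNIP3, the lysosome membrane protein LAMP2 serves the final step, and TFEB is a transcription factor for lysosome and autophagy genes. In the heart, whose muscle cells are long-lived and packed with mitochondria, this turnover is known to be needed for normal function.

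The 10 genes described here are Atg13, Ulk1, Becn1, Map1lc3a, Map1lc3b, Gabarapl1, Sqstm1, Bnip3, Lamp2 and Tfeb, out of 17818 gene symbols in the table. They were chosen by symbol for these roles, with their levels in all 5 libraries already known. Their levels and fold changes are therefore given as a description, with no test resting on them. All 10 passed the filter of at least 1 CPM (the count scaled to a common library total) in at least 2 libraries, which 12734 genes passed.

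The libraries are poly-A RNA-seq of hearts from male mice, taken 12 months after a bone marrow transplant and with 2 months of treatment. The study concerns clonal hematopoiesis, the outgrowth of blood cells with mutations in genes such as Tet2. The groups were a wild-type (WT) control given vector (1 library), Tet2+/- given vector (2 libraries) and Tet2+/- given oridonin, a plant diterpenoid (2 libraries). All 3 groups had received a transplant. The labels give neither the animals' age nor whether Tet2+/- refers to donor marrow, host or both, and nothing says that a library is 1 animal. The samples' characteristics give 2 months of treatment for all 5, but their titles carry the number 1 or 2 before the word month. That number was read as a replicate number; if it is a time, the libraries of a Tet2+/- group differ in treatment time and the spread within groups includes it. WT has no replicates, so a difference between genotypes and a difference peculiar to that WT library cannot be told apart. The WT values do not come back as whole counts and may themselves be a blend of libraries, which bears on every fold over WT.

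The libraries held 14574823 to 15535778 counts. Mitochondrially encoded genes made up 23.6% of the WT counts and 26.8% to 30.2% of those in each Tet2+/- library. The heart muscle markers matched the labelled tissue: 8 of 8 were found, 0 of them at 0 counts in any library. They summed to 46488 CPM in WT, 54277 and 46358 under vector and 52261 and 58679 with oridonin. Single markers moved in both directions, with 4 positive and 4 negative log2 fold changes of vector over WT. Actc1 was at 5211 CPM in WT and 12753.3 to 14162.5 in the Tet2+/- libraries, and Ryr2 at 2373 and 574 to 1435 CPM. Vector replicate 1 stood apart in atrial markers, which summed to 981 CPM there against 14.1 to 70.0 in the other 4 libraries. Where the members differ between libraries, fewer cells of a type and less RNA per cell cannot be told apart.

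Promoter sequence is shown for the members whose level in the WT heart was at least 1.46 times that of every Tet2+/- heart, namely Atg13, Ulk1, Sqstm1 and Bnip3. Each line gives the 250 bases before the RefSeq start site, 5′ to 3′ on the gene's strand (GRCm38.p6, minus strand for all 4). The positions are chr2:91710593-91710842 for Atg13, chr5:110810082-110810331 for Ulk1, chr11:50210821-50211070 for Sqstm1 and chr7:138909507-138909756 for Bnip3. Capitals mark matches to the motifs named after the sequences.
Atg13: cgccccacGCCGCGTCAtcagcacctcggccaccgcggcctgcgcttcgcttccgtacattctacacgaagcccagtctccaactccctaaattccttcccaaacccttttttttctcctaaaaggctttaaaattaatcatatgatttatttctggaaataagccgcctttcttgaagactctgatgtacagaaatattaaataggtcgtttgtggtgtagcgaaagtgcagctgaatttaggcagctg
Ulk1: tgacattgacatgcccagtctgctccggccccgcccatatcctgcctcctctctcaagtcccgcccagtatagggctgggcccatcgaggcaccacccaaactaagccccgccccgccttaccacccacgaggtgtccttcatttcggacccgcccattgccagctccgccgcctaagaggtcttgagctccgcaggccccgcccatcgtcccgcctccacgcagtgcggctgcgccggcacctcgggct
Sqstm1: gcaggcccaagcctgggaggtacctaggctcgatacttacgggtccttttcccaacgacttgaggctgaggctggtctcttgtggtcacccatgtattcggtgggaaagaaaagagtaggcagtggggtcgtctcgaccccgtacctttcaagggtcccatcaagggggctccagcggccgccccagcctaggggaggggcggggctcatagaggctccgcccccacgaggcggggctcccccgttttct
Bnip3: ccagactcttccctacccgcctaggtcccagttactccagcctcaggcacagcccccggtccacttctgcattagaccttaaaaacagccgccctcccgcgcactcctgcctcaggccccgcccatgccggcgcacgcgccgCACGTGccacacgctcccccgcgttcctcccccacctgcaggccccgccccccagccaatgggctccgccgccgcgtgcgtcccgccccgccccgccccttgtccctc

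RefSeq promoter windows, 250 bases before to 50 after a start site, were found for 8 of the 10 members, in 10 windows because Tfeb has several start sites. Becn1 and Map1lc3a were not matched. The E-box CACGTG, the core of the element that TFEB binds, was present in Bnip3 alone, first base at -108 from the start site, against 7.15% of all 32817 windows. The longer form TCACGTGA was in 0 of the 10 windows and in 0.975% of all windows. The hypoxia-response core was searched only in the exact form ACGTG, which overlaps the E-box, and its other forms were not searched. It was found on both strands at that same place in Bnip3 (19.6% of all windows). The FOXO motif, searched only in the exact form GTAAACA, was in 0 windows (3.65% of all), and other forms of it were not searched. The antioxidant-response core TGACNNNGC was found in Atg13, on the opposite strand from base -242, and in Map1lc3b, from base 5 after the start (12.4% of all windows). Both strands were searched, and a match describes letters only.

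Among the initiation genes, Atg13, the adaptor of the ULK1 kinase complex, differed most (chromosome 2, 91674618 to 91710576, minus strand). Its level was 159.9 CPM in WT, 50.4 and 46.4 CPM under vector and 57.6 and 56.3 CPM with oridonin. Every Tet2+/- heart stood at least 2.78 times below the WT heart, and the spread within each Tet2+/- group was small beside that gap. Under vector the level was 3.30-fold lower than in WT, a log2 fold change of -1.72 with an SE (standard error) of 0.21 and a 95% interval of -2.23 to -1.22. It ranked 60th from the lowest of the 12734 genes tested.

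Ulk1, the kinase itself (chromosome 5, 110784488 to 110810097), was at 132 CPM in WT, 68.0 and 62.4 CPM under vector and 77.9 and 90.3 CPM with oridonin. The order was WT, then oridonin, then vector, with no overlap between the groups. The log2 fold change was -1.02 (SE 0.22) for vector over WT and -0.65 (SE 0.22) for oridonin over WT. Both initiation genes were higher with oridonin than under vector in 2 of 2 libraries, by a log2 of 0.24 (95% interval -0.18 to 0.65) for Atg13 and 0.36 (-0.07 to 0.80) for Ulk1, and both intervals span 0.

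Becn1, which nucleates the membrane with the class III PI3-kinase, differed little (chromosome 11, 101285952 to 101302286). It was at 47.4 CPM in WT, 42.4 and 43.2 CPM under vector and 42.2 and 37.4 CPM with oridonin. Its log2 fold change of vector over WT was -0.15 (SE 0.22), smaller than its error.

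The ATG8 family coats the growing membrane, and its members differed in their distance from WT. Gabarapl1 (chromosome 6, 129533160 to 129542346) was at 144 CPM in WT, 76.5 and 109 CPM under vector and 87.0 and 78.0 CPM with oridonin, so that the WT heart was at least 1.32 times above each of the others. Map1lc3b, which encodes the LC3B protein used as the standard marker of autophagosomes (chromosome 8, 121590361 to 121598760), was at 308 CPM in WT, 217 and 296 CPM under vector and 215 and 206 CPM with oridonin. Its WT level was only 1.04 times the higher vector library. Map1lc3a (chromosome 2, 155276297 to 155278073) was at 416 CPM in WT, 310.0 and 419.8 CPM under vector and 429.7 and 334 CPM with oridonin, and here the groups overlapped. The log2 fold changes of vector over WT were -0.66 (SE 0.27) for Gabarapl1, -0.28 (SE 0.24) for Map1lc3b and -0.20 (SE 0.27) for Map1lc3a.

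The cargo receptor Sqstm1 binds ubiquitin-tagged cargo and LC3 and is itself degraded by autophagy (chromosome 11, 50199366 to 50210827). It was at 683 CPM in WT, 253 and 365 CPM under vector and 335 and 309 CPM with oridonin. The WT heart stood at least 1.87 times above every Tet2+/- heart, while the vector and oridonin groups overlapped. The log2 fold change was -1.17 (SE 0.26) for vector over WT and -1.09 (SE 0.26) for oridonin over WT.

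The mitophagy receptor Bnip3, an outer-membrane protein of mitochondria (chromosome 7, 138890836 to 138909519), was at 302 CPM in WT, 115 and 188 CPM under vector and 141 and 123 CPM with oridonin. Both treatment groups lay below WT and overlapped each other. The log2 fold change was -1.04 (SE 0.32) for vector over WT and -1.20 (SE 0.32) for oridonin over WT.

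At the lysosome, Lamp2 (chromosome X, 38401357 to 38456454) was at 243 CPM in WT, 231 and 167 CPM under vector and 179 and 194 CPM with oridonin. Its WT level was 1.05 times the highest Tet2+/- library, and the log2 fold change of vector over WT was -0.31 (SE 0.25). Tfeb (chromosome 17, 47737030 to 47792419) was at 24.5 CPM in WT, 25.6 and 28.8 CPM under vector and 28.6 and 23.7 CPM with oridonin. It was the single member with a positive log2 fold change of vector over WT, 0.15 (SE 0.25), and its oridonin libraries lay on either side of WT.

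**Figure D1:**
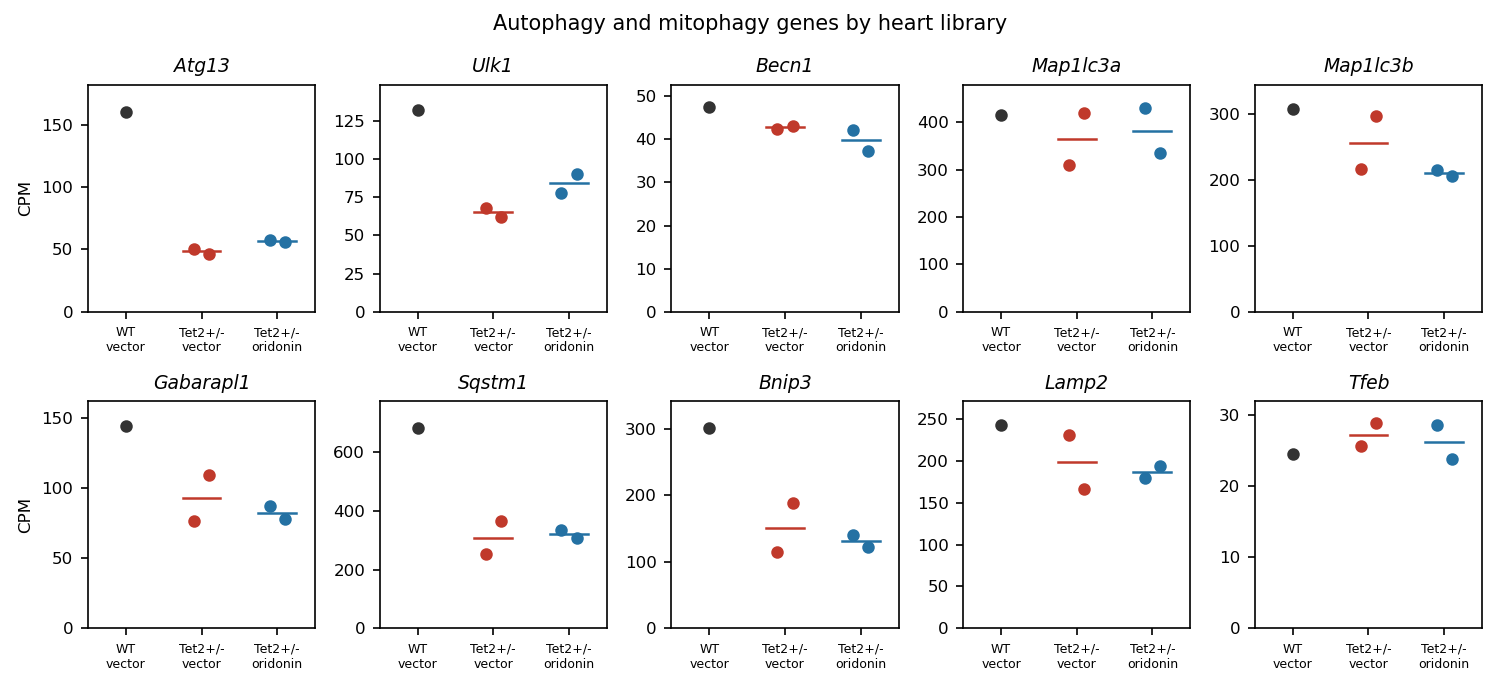
Level of each of the 10 genes in CPM (vertical axes, each from 0) in the WT vector, Tet2+/- vector and Tet2+/- oridonin hearts; points are libraries and short lines are means of 2. Atg13, Ulk1, Sqstm1 and Bnip3 are highest in the WT heart by at least 1.46 times. Tfeb and Becn1 have the narrowest ranges over the libraries (log2 of 0.28 and 0.34), and in Map1lc3a the groups overlap.

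In 8 of the 10 members all 4 Tet2+/- libraries lay below the WT library, the exceptions being Map1lc3a (2 of 4) and Tfeb (1 of 4). Over all genes tested the same held for 27.2%. Leaving out a Tet2+/- library can only keep or raise such a count, so stability cannot be read from it. With any 1 of them left out it was 8, where 28.9% to 35.2% of all genes qualified. The single WT library entered every one of these counts. The WT library is shared by both comparisons with WT, and their values for a member are not independent.

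Limma called 0 of 12734 genes (0%) at a false discovery rate (FDR) of 0.05 in each of the 3 comparisons, and so 0 of the 10 members. At an unadjusted p under 0.05, 4 members were lower under vector than in WT (Atg13, Ulk1, Sqstm1 and Bnip3), where 4.53% of all genes were, and 5 were lower with oridonin than in WT (the same 4 and Gabarapl1), where 3.53% of all genes were. The smallest adjusted p of a member in limma was 0.264, for Atg13 in vector against WT. As the members were chosen with these comparisons in view, nothing is read from the counts. The median log2 fold change of the 10 was -0.48 for vector over WT and -0.60 for oridonin over WT, beside 0.00 and -0.06 for all genes tested.

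**Figure D2:**
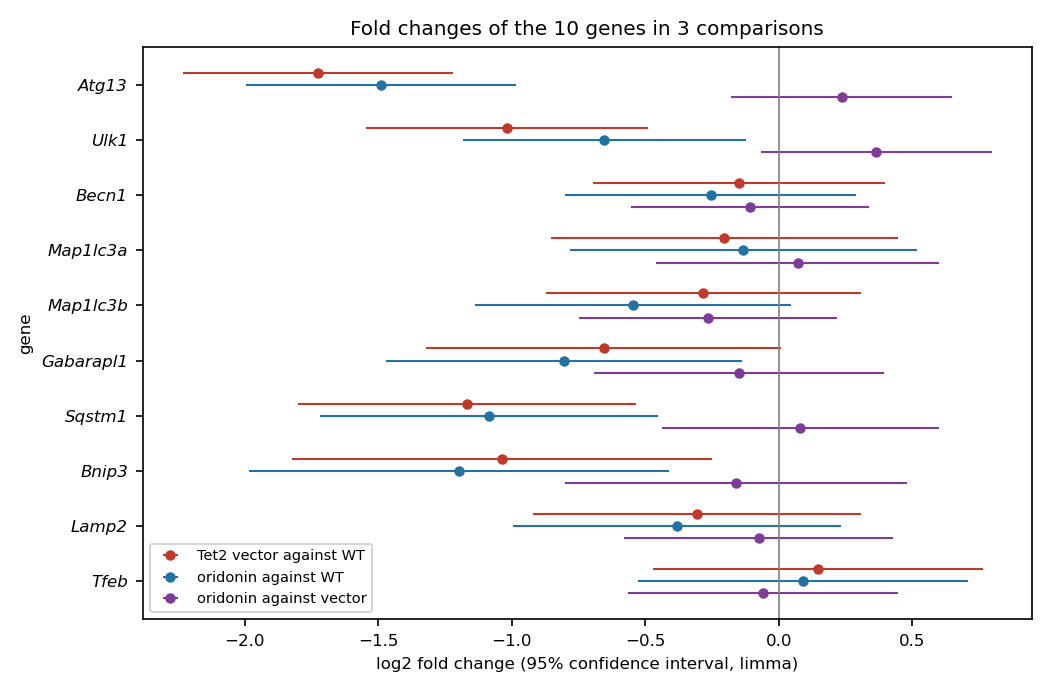
Log2 fold change of each gene (horizontal axis, points) with its 95% confidence interval from limma (lines) in Tet2+/- vector against WT, oridonin against WT and oridonin against vector. Atg13 lies farthest from 0 in both comparisons with WT (-1.72 and -1.49), and all 10 intervals of oridonin against vector include 0.

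The comparison of oridonin with vector asks whether treatment changed these genes in Tet2+/- hearts. Differences were small, between a log2 of -0.26 for Map1lc3b and 0.36 for Ulk1, with a median of -0.07 where all genes tested had -0.05. The groups did not overlap for 2 members that were higher (Atg13 and Ulk1) and 2 that were lower (Becn1 and Map1lc3b), against 8.33% of all genes higher and 17.8% lower. At an unadjusted p under 0.05 there were 0 members higher (0.668% of all genes) and 0 lower (1.93%). The intervals still allow changes of some size: from -0.44 to 0.60 for Sqstm1 and from -0.80 to 0.48 for Bnip3.

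**Figure D3:**
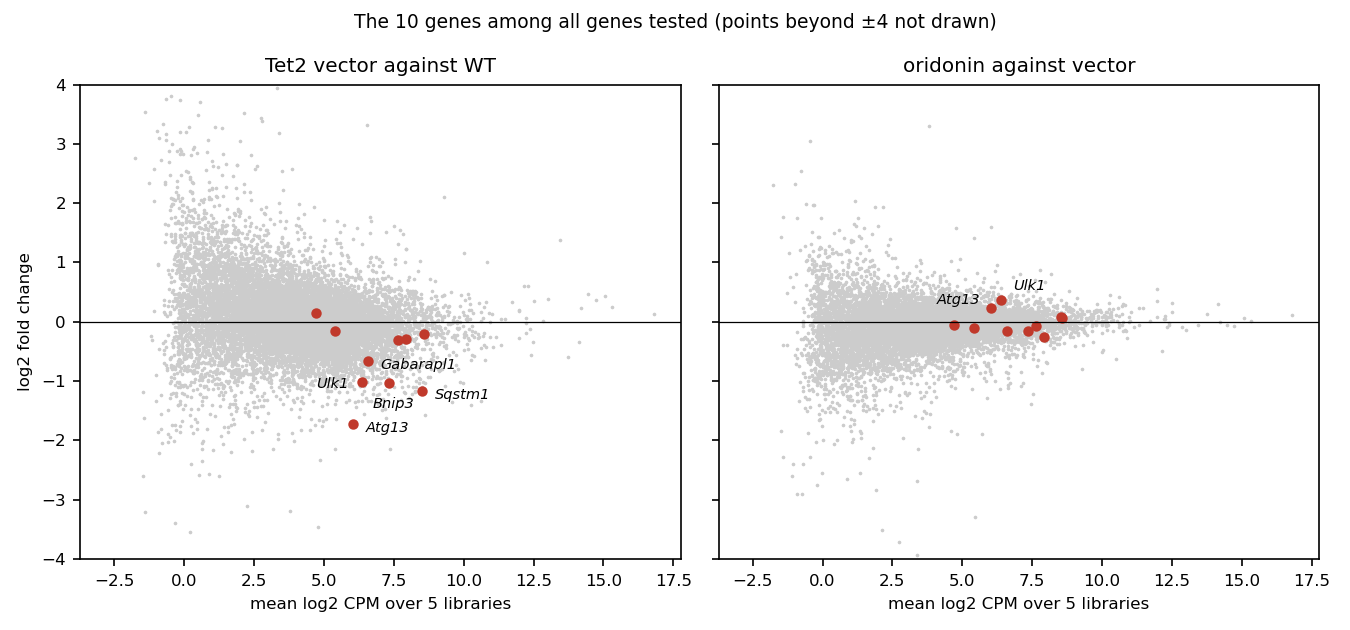
Log2 fold change (vertical axis) against mean log2 CPM over the 5 libraries (horizontal axis) for all 12734 genes tested (grey) and the 10 genes (red), in Tet2+/- vector against WT (left) and oridonin against vector (right). Atg13, Sqstm1, Bnip3 and Ulk1 sit at log2 fold changes of -1.02 to -1.72 on the left, and on the right all 10 lie between -0.26 and 0.36.

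Within the vector group, several members differed between the replicates. Replicate 2 was above replicate 1 by 1.64 times for Bnip3, 1.44 times for Sqstm1, 1.43 times for Gabarapl1, 1.37 times for Map1lc3b and 1.35 times for Map1lc3a, and Lamp2 was at 0.721 times. Atg13 and Ulk1 differed less, at 0.920 and 0.918 times. These libraries also differed by gene length. The median log2 ratio of replicate 2 to replicate 1 was 0.27 in 1579 genes with under 2 kb of exons, -0.07 in 6648 genes of 2 to 6 kb and -0.46 in 4090 genes with over 6 kb. In the oridonin group it was -0.12, 0.03 and 0.24. Over WT, the median of the long genes was 0.07 and -0.36 under vector (replicates 1 and 2) and -0.32 and -0.06 with oridonin. Of the members, Map1lc3a (1.18 kb) is in the short class, and Gabarapl1 (2.01 kb), Bnip3 (2.27 kb), Sqstm1 (3.36 kb), Atg13 (4.37 kb) and Tfeb (5.67 kb) are in the middle class. Ulk1 (6.49 kb), Becn1 (7.07 kb), Map1lc3b (7.52 kb) and Lamp2 (9.55 kb) are long, with replicate ratios under vector of 0.918, 1.02, 1.37 and 0.721. The part of length in the members' values was not tested.

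Per kilobase of merged exon, and averaged over the 5 libraries, Map1lc3a had the highest level of the 10, at 323 CPM per kb. Sqstm1 followed at 116, Bnip3 at 76.7, Gabarapl1 at 49.1, Map1lc3b at 33.0, Lamp2 at 21.2, Atg13 at 17.0, Ulk1 at 13.3, Becn1 at 6.02 and Tfeb at 4.63 CPM per kb. Ranges over libraries overlapped for the neighbours Sqstm1 and Bnip3, Bnip3 and Gabarapl1, Gabarapl1 and Map1lc3b, Lamp2 and Atg13, and Atg13 and Ulk1. The last 2 pairs kept their order in 4 of 5 libraries and the other neighbours in 5 of 5. Atg13 was above Lamp2 in the WT heart alone, at 36.6 against 25.4 CPM per kb. Lengths are those of GENCODE M21 on GRCm38, and merged exons count every annotated isoform, so a gene whose longest ends are little used is set low by them.

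The wider pathway held 129 other listed genes, of which 126 were tested. In vector against WT, 0 passed the FDR, with 18 lower and 1 higher at an unadjusted p under 0.05 (4.53% of all genes tested were lower), and in oridonin against vector 0 passed, with 0 at that level in either direction. In oridonin against WT 0 passed, with 14 lower (3.53% of all genes) and 0 higher. The median log2 fold change of these genes over WT was -0.19 under vector and -0.20 with oridonin. All 4 Tet2+/- libraries lay below WT in 67 of the 126 tested, a larger share than the 27.2% of all genes tested. These lists were chosen with earlier results known, and nothing is read from the counts.

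By step of the pathway, with members counted in their lists, the medians for vector over WT were -0.67 for the 5 genes of the ULK1 complex, -0.47 for the 9 of membrane supply and -0.29 for the 8 of the class III PI3-kinase complex. They were -0.54 for 10 cargo receptors, -0.31 for 14 fusion genes, -0.24 for 29 genes of nutrient signalling, -0.21 for 13 mitophagy genes and -0.20 for the 5 ATG8 genes. Those for 6 transcription factors (-0.10), 26 lysosome genes (-0.01) and 11 conjugation genes (0.05) lay nearest to the 0.00 of all genes tested. All 10 tested cargo receptors, 8 of 8 PI3-kinase complex genes, 5 of 5 ATG8 genes and 13 of 14 fusion genes had negative values. So did 18 of 29 genes of nutrient signalling, 13 of 26 lysosome genes and 4 of 11 conjugation genes. In each list 0 genes were called. The share of negative values over all genes tested was not counted. A negative value can come from vector libraries on either side of WT, as for Rubcn (43.4 and 29.9 CPM against 39.7 in WT). Differences between lists were not tested. Single libraries moved these medians: leaving out vector replicate 1 gave 0.01 for the ATG8 genes and -0.22 for membrane supply, and leaving out vector replicate 2 gave -0.31 for cargo receptors and -0.11 for nutrient signalling. Without vector replicate 1 and without vector replicate 2 in turn, the PI3-kinase complex was at -0.48 and -0.17 and the transcription factors at -0.26 and 0.04.

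Among the genes of the early steps, Ulk2, a second initiating kinase, was at 117 CPM in WT, 80.8 and 66.2 under vector and 78.8 and 82.3 with oridonin (limma, adjusted p = 0.471 for vector against WT). Atg9a, the membrane protein that seeds autophagosomes, was at 62.8 CPM, 38.1 and 23.2 CPM and 33.0 and 36.4 CPM, and Atg2a, a lipid transfer protein, at 44.5 CPM, 26.1 and 22.8 CPM and 29.7 and 31.3 CPM. Rb1cc1, the scaffold of the ULK1 complex, varied widely, at 30.6 CPM in WT, 69.4 and 44.4 CPM under vector and 16.0 and 67.8 CPM with oridonin.

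Among cargo receptors, Retreg1, a receptor for the endoplasmic reticulum, was at 454 CPM in WT, 173 and 229.7 under vector and 200.3 and 186 with oridonin (log2 fold change of vector over WT -1.19, SE 0.24; limma, adjusted p = 0.324). Calcoco1 was at 203 CPM, 98.4 and 112 CPM and 132 and 123 CPM. Pink1, the kinase that marks damaged mitochondria, was at 828 CPM, 579 and 683 CPM and 699 and 561 CPM, a log2 fold change of vector over WT of -0.40 (SE 0.22).

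Foxo3, a transcription factor that drives autophagy genes in muscle, was at 171 CPM in WT, 82.2 and 59.8 under vector and 79.5 and 88.9 with oridonin (log2 fold change of vector over WT -1.29, SE 0.26; limma, adjusted p = 0.324), while Foxo1 was at 28.6 CPM, 28.9 and 23.9 CPM and 26.5 and 21.5 CPM. Of the genes that hold mTORC1 in check, Ddit4 was at 81.7 CPM in WT, 18.9 and 35.9 under vector and 35.4 and 22.4 with oridonin, and Sesn1 at 225 CPM, 132 and 115 CPM and 101 and 117 CPM. Among late genes, Tecpr1, a tether for fusion, was at 76.3 CPM, 37.1 and 40.0 CPM and 40.5 and 38.9 CPM. The lysosomal enzyme genes Gaa and Ctsl were at 231 and 339 CPM in WT, with every Tet2+/- library between 125 and 148 CPM for Gaa and between 149 and 212 CPM for Ctsl. None of these named genes passed the FDR (limma, 0 over all genes tested).

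**Figure D4:**
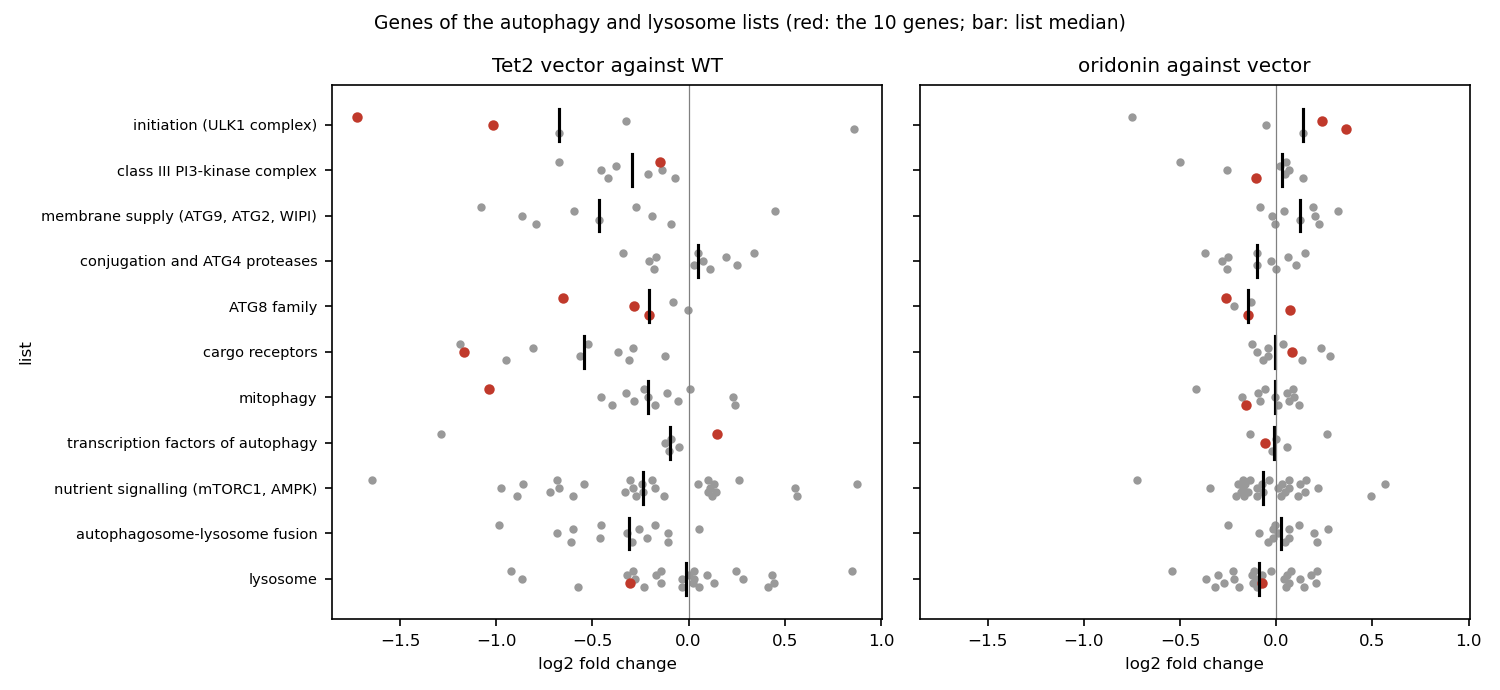
Log2 fold change (horizontal axis) of each tested gene of the 11 autophagy and lysosome lists (rows), in Tet2+/- vector against WT (left) and oridonin against vector (right); red points are the 10 genes and black bars list medians. List medians on the left run from -0.67 for the ULK1 complex to 0.05 for conjugation, and on the right they lie between -0.15 and 0.14.

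In oridonin against vector the list medians ranged from -0.15 (ATG8 family) to 0.14 (ULK1 complex). Leaving out 1 library moved them: the ATG8 family ran from -0.40 (without vector replicate 1) to -0.03 (without vector replicate 2), and the ULK1 complex reached 0.28 without vector replicate 1. Membrane supply ran from 0.0082 (without oridonin replicate 2) to 0.23 (without oridonin replicate 1), and the PI3-kinase complex changed sign, from -0.14 (without oridonin replicate 1) to 0.16 (without vector replicate 1). The largest differences among named genes were those of Rb1cc1, at a log2 of -0.75 (SE 0.65), Rragb, a small GTPase of nutrient sensing, at -0.72 (SE 0.39), and Deptor, an mTOR inhibitor, at 0.57 (SE 0.33). Rragb was close to the filter of 1 CPM, at 1.65 CPM in WT, 2.70 and 3.46 under vector and 1.64 and 2.06 with oridonin. The lysosomal tetraspanin gene Cd63 was at 119 and 166 CPM under vector and 110.1 and 84.9 CPM with oridonin, beside 104 CPM in WT.

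The pattern of Atg13, which had the widest range of the members, was set against those of the other 12733 genes tested over the 5 libraries. Closest were Clmn, Gclm, Fkbp5, Aox1 and Spock2, with root mean square differences of 0.070, 0.089, 0.099, 0.10 and 0.13 in log2 CPM centred on each gene's mean, where the median gene differed by 0.69. Gclm, a subunit of the enzyme that makes the precursor of glutathione, was at 62.7 CPM in WT, 19.1 and 18.5 CPM under vector and 20.9 and 24.6 CPM with oridonin. Fkbp5, a co-chaperone of steroid receptors, was at 77.2 CPM, 26.8 and 21.8 CPM and 25.1 and 25.2 CPM. All 5 were high in the WT library and low in the other 4, which follows from choosing them for likeness to Atg13.

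Markers of other cell types also differed between these libraries. Fibroblast markers (6 of 6 found) summed to 861 CPM in WT, 1209 and 1308 under vector and 688 and 713 with oridonin, and macrophage markers (8 of 8) to 378 CPM, 695 and 464 CPM and 423 and 409 CPM. Endothelial markers (6 of 6) summed to between 898 and 1164 CPM in the 5 libraries. Smooth muscle and pericyte markers (5 of 5) summed to 1177 CPM in WT, 1330 and 961 under vector and 948 and 785 with oridonin. Red cell markers (4 of 5 found) summed to 366 CPM in WT, 247 and 147 under vector and 387 and 319 with oridonin, with a median log2 fold change of vector over WT of -0.99 and 0 of 4 called. Fat cell markers had at most 8.75 CPM in any library, with all 4 at 0 counts in at least 1 library. Their part in the members' values was not tested. Exons of Becn1 and Sqstm1 overlap those of the protein-coding genes Cntd1 and Mrnip on the opposite strand, which had at most 0.322 and 1.51 CPM. Map1lc3b shares 58 bases of exon with Zcchc14, at 31.8 to 54.4 CPM. Exons of Gabarapl1 and Bnip3 overlap, by up to 377 and 342 bases, those of the opposite-strand genes 1700101I11Rik and Gm45507, whose levels were not analysed here. Whether counting used strand is unknown here, so reads of such overlaps cannot be told apart.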

How the data were processed

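Poly-A RNA from hearts was made into NEBNext Ultra libraries, and the genome build is mm10, per the labels' protocols and the submitters' processing notes. Aligner, counter, annotation and strand setting: not given in the sources used here. A single table of log2 values was deposited by the authors. Judged by the values, 0.5 was added to each count before division by the library total, giving log2 CPM. There were 0 columns without a sample. Each Tet2+/- column held 0.75 of its own value and 0.25 of the other replicate's. Undoing this returned whole counts (within 0.01) for at least 99.9% of genes. The WT column, whose values are not whole counts and which may be a blend of unknown origin, was used as deposited. This unmixing was chosen with the data seen.

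Limma 3.58.1 (R 4.3.3; trend, robust) was fitted to the unmixed log2 values of the 12734 genes that reached 1 CPM in 2 or more libraries, with group as the only term. All 5 libraries entered 1 fit, which has 2 residual degrees of freedom, so WT, with 1 library, is taken to vary as the Tet2+/- groups do. P-values were adjusted by Benjamini-Hochberg over all genes tested (FDR 0.05), and they measure only the spread between these samples. The fit was tested on simulated data. Alternatives were deposited values, no filter, 2 other scalings, voom, a replicate block and leaving out each library. A count of 3 is 0.193 to 0.206 CPM.

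The members and lists were chosen with earlier results of these data known. Beyond the members, the 2 genes of each list with the smallest unadjusted p in vector against WT and in oridonin against vector were eligible to be named, and the 5 genes closest to the member with the widest range. Same-numbered replicates were not known to share an animal or batch.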

Additional observations from a re-analysis of the deposited data

How the results depend on the processing

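The design has 1 WT library and 2 residual degrees of freedom. The members' lowest count was 346, so depth leaves each of them measurable. The median log2 fold change of the 10 genes moved by less than the spread between replicates (SD 0.26) under every alternative run. That spread is not the error of a median over 10 genes, so stability cannot be read from it. With 1 library left out, the median ran from -0.71 to -0.47 for vector over WT and from -0.62 to -0.56 for oridonin over WT. In oridonin against vector it changed sign (-0.15 to 0.14). Counts of called genes, 0 in each comparison, are given here for vector against WT, oridonin against vector and oridonin against WT in turn. On the values as deposited, whose replicates are mixed, they were 2312, 76 and 996, with 31, 0 and 22 pathway genes (members included). Atg13, Ulk1, Sqstm1, Bnip3 and Gabarapl1 were among those pathway genes in both comparisons with WT. Mixing leaves the mean of a group unchanged but draws its replicates together. The spread is thus understated on deposited values, and nothing is read from their counts. With a replicate block the counts of called genes were 10, 9 and 6, with 0 members. Same-numbered replicates deviated oppositely (correlation -0.30). A crossed pairing was added after the data were seen, and no label gives such pairs. With it counts were 432, 44 and 184, with 13, 0 and 12 pathway genes and 5, 0 and 4 members. A block that follows deviations already seen lowers the residual spread, so nothing is read from these counts. Leaving out 1 library gave 2 to 107, 0 to 32 and 0 to 24 genes and 0 to 2, 0 to 1 and 0 to 0 pathway genes. The highest counts came without oridonin replicate 2. Without either oridonin replicate, Atg13 and Ddit4 were called in vector against WT, and without replicate 2 Rb1cc1 was called in oridonin against vector. The cause was not tested. The adjusted p of Atg13 in vector against WT ran from 0.0013 to 0.48 over the alternatives (limma).

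Directions of small differences depended on single libraries. In oridonin against vector, leaving out 1 library gave log2 fold changes of -0.18 to 0.35 for Sqstm1, -0.15 to 0.29 for Map1lc3a, -0.40 to 0.11 for Gabarapl1, -0.19 to 0.074 for Tfeb, -0.31 to 0.16 for Lamp2 and -0.52 to 0.20 for Bnip3. Against WT, Map1lc3a ran from -0.42 to 0.014 under vector and from -0.31 to 0.048 with oridonin, and Tfeb with oridonin from -0.045 to 0.22. Under vector against WT, Bnip3 ran from -1.39 to -0.68 and Gabarapl1 from -0.91 to -0.40, each lower without vector replicate 2. Tfeb in oridonin against vector was 0.00022 with median-of-ratios scaling, and in oridonin against WT -0.019 with the crossed pairing. Atg13, Ulk1, Sqstm1, Bnip3 and Gabarapl1 were below WT in both Tet2+/- groups under every alternative run. For these genes each Tet2+/- library lay at least 1.32 times below WT, so leaving out 1 of those libraries could not change the sign. The single WT library could not be varied in these comparisons.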
